A study of Rattus norvegicus with 5 samples.

Results

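Follistatin, the activin and TGF-beta ligands, the TGF-beta type I receptor and the Id factors were followed over the hypothalamic cell populations read on the rat U34A array. Every probe set whose only gene in the platform annotation was *Fst*, *Inhba*, *Tgfb1*, *Tgfb2*, *Tgfb3*, *Tgfbr1*, *Id1*, *Id2* or *Id3* was taken. This gave 14 probe sets of these 9 genes, of 8740 probe sets and 4736 named genes in all. All cells came from primary cultures of the hypothalamus of Wistar rat embryos at embryonic day 17. GFP+ cells carried a GFP reporter driven by the minimal *Trh* promoter, had been transfected with polyethylenimine and were then selected for fluorescence by FACS. Their RNA was a pool of 6 independent experiments and was read on 2 arrays. GFP+/- cells came from cultures given the same plasmid, held positive and negative cells together and went through the sorter without selection. NT cells were never transfected. The RNA of GFP+/- cells and that of NT cells were pools of 3 independent experiments each, read on 2 arrays for GFP+/- and on 1 array for NT cells. The sources used here do not say whether NT cells went through the sorter, so that transfection and passage through the sorter cannot be told apart in the comparisons with NT cells. The reporter marks cells in which a transfected promoter fragment was active. The labels call the arrays of a population biological replicates, whereas the methods speak of aliquots of one pooled RNA, so each SD, SE and p below measures the spread between arrays.

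The TGF-beta superfamily signals through pairs of type I and type II serine/threonine kinase receptors that phosphorylate SMAD proteins, which then move to the nucleus and act on transcription. Follistatin is a secreted protein that binds activins, and some bone morphogenetic proteins, and keeps them from their receptors. The Id proteins are helix-loop-helix proteins without a DNA-binding region, which pair with basic helix-loop-helix (bHLH) factors and keep them off DNA, and they are known as genes that bone morphogenetic proteins induce and TGF-beta can repress or induce, depending on the cell.

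The 3 *Id* genes encode members of one family. Their probe sets stood in different orders over the arrays, also within *Id1* and within *Id3*, which was not tested. Whether the promoters have a part in these orders was not tested either. The 250 bases before the annotated start of each gene are shown, 5′ to 3′ on the strand of the gene, from RefSeq on build GRCr8. They lie at chr3:161671314-161671563 on the plus strand for *Id1*, chr6:47470996-47471245 on the minus strand for *Id2* and chr5:153656041-153656290 on the plus strand for *Id3*. Capitals mark a match to CAGAC on either strand (the SMAD box), to GGCGCC or GGAGCC on either strand (GC-rich SMAD elements) or to CANNTG (the E-box that bHLH factors bind).
Id1: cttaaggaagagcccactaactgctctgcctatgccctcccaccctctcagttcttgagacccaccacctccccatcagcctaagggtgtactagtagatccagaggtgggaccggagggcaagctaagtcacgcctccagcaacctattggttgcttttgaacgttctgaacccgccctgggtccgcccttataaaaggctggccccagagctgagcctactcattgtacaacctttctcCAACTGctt
Id2: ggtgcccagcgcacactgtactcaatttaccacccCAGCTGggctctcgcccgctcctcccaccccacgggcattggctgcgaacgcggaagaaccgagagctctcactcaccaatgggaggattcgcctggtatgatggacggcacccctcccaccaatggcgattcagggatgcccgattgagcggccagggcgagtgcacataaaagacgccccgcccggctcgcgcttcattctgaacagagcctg
Id3: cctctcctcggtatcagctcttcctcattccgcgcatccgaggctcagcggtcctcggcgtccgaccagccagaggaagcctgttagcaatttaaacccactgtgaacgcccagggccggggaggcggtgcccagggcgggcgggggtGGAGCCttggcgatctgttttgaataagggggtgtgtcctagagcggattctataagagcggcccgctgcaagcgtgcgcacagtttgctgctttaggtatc

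The *Id1* window held 1 E-box, whose first base lies 9 bases before the start, and the *Id2* window held 1 E-box that begins 215 bases before the start. The *Id3* window held 1 GGAGCC, 102 bases before the start, and no E-box. Of the 9 genes, 8 had an entry in the promoter table, and *Fst* is named only. No window of these 8 held CAGAC, and no match overlapped another. An E-box was also found for *Inhba*, *Tgfb2* and *Tgfb3*, and GGCGCC for *Tgfbr1*. Over all 33469 promoters of the table, 42.9% held CAGAC in the same 250 bases, 8.69% GGCGCC, 23% GGAGCC and 65.5% CANNTG. A match is a description of these letters and not a binding site.

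Each value below is a MAS 5.0 signal, a linear intensity that the authors scaled to one mean per array, and the log2 differences and their adjusted p-values come from limma with Benjamini-Hochberg adjustment over all 8740 probe sets. Signals of different probe sets cannot be set against each other. The median signal was between 102 and 116 on the 5 arrays. The signal of the 3' part of *Gapdh* over its 5' part was 14.6 and 17.6 in GFP+ cells, 12.7 and 14.2 in GFP+/- cells and 5.45 in NT cells. *Trh* itself had signals of 115 and 141 in GFP+ cells, 109 and 106 in GFP+/- cells and 96.6 in NT cells. Of 12 fibroblast and meningeal markers measured, 11 were lower on both GFP+ arrays than on both GFP+/- arrays, and their summed signals were 14745 and 21052 in GFP+ cells, 44011 and 43268 in GFP+/- cells and 19655 in NT cells. The summed signals of 10 mural and endothelial markers were 2372 and 4272 in GFP+ cells, 9727 and 11891 in GFP+/- cells and 1985 in NT cells, with 3 markers higher and 3 lower on both GFP+ arrays than on both GFP+/- arrays and with *Des* and *Vwf* at a median under 50. Those of 9 neuronal markers, of which 6 were higher on both GFP+ arrays than on both GFP+/- arrays, were 26891 and 22708 in GFP+ cells, 17671 and 19154 in GFP+/- cells and 33746 in NT cells, with *Syt1* at a median under 50. Those of 9 astrocyte and radial glia markers lay between 29551 and 35483 on all arrays, with *Vim* the brightest. Of these astrocyte and radial glia markers, 3 were higher and 1 lower on both GFP+ arrays than on both GFP+/- arrays. The sums of 9 microglial markers were 1089.8 and 1031 in GFP+ cells, 664 and 553 in GFP+/- cells and 1724 in NT cells. Of these 9, 6 were higher and 1 lower on both GFP+ arrays than on both GFP+/- arrays, and 5 were higher and 3 lower on both GFP+ arrays than on the NT array, where *Ctss* alone had 903. *Itgam* and *C1qb* had a median under 50. Those of 3 red cell markers were 3978 and 4701 in GFP+ cells, 9636 and 6855 in GFP+/- cells and 624 in NT cells. Those of 6 oligodendrocyte markers lay between 1401 and 1639, with *Mbp* and *Mog* at a median under 50, and those of 12 hypothalamic neuropeptides between 3663 and 4046. On both GFP+ arrays against both GFP+/- arrays, 2 oligodendrocyte markers were higher and 1 lower. In the same comparison 2 neuropeptides were higher and 1 lower, and 1 red cell marker was higher and 1 lower. Over all probe sets, 30.4% were higher and 15.4% lower on both GFP+ arrays than on both GFP+/- arrays. Against the NT array, 41.5% were higher and 35.9% lower on both GFP+ arrays. The part of the cell types of these markers in the differences below was not tested. In pooled RNA, fewer cells of a type and less RNA per cell cannot be told apart.

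**Figure D1:**
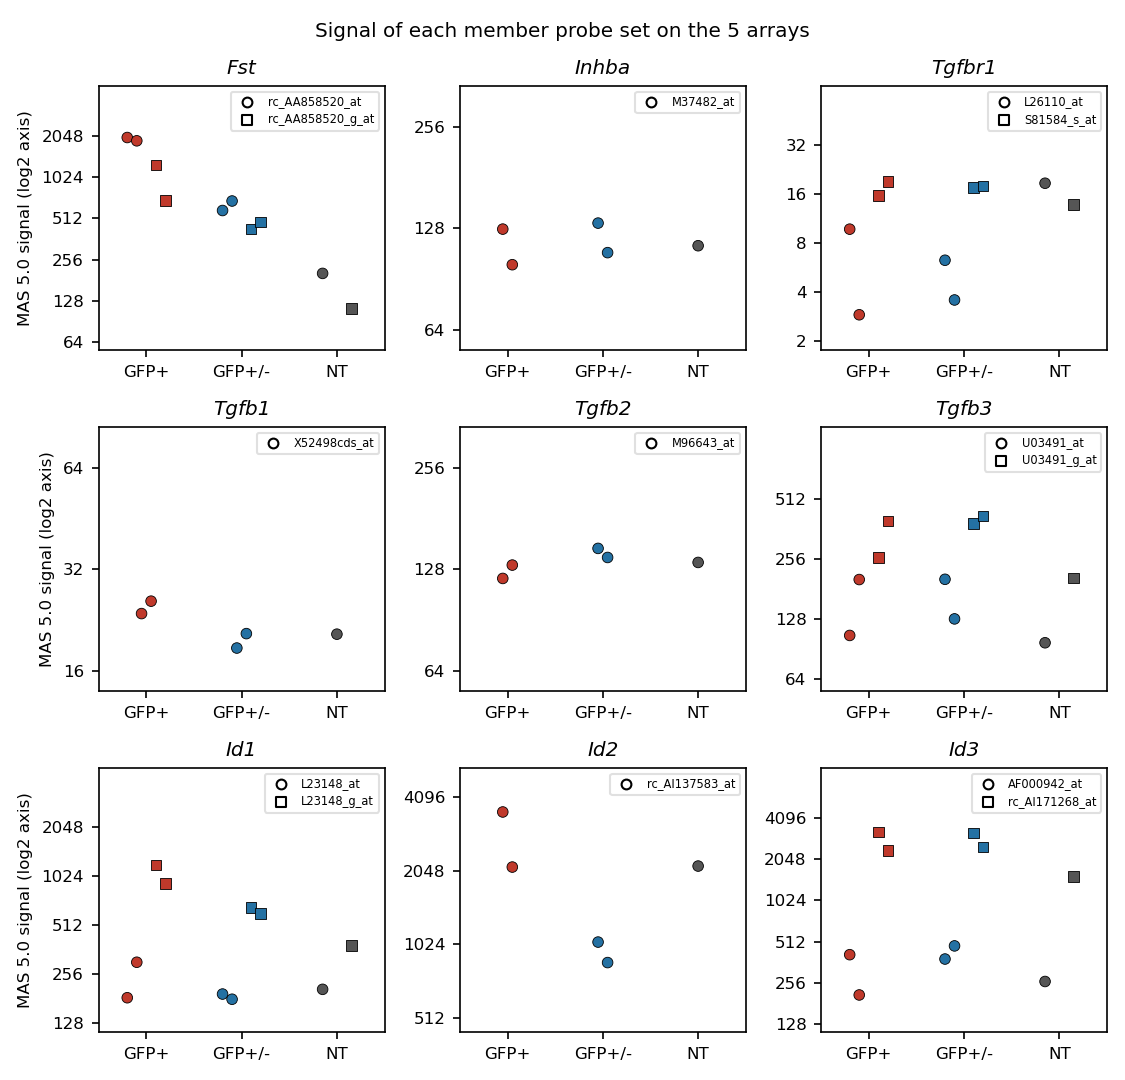
MAS 5.0 signal (log2 axis) of the 14 probe sets on each of the 5 arrays, with 1 panel per gene and 1 marker shape per probe set; points are single arrays in GFP+, GFP+/- and NT cells. Both *Fst* probe sets stand highest on the GFP+ arrays and lowest on the NT array, *Id2* is lowest on the GFP+/- arrays, and *Inhba*, *Tgfb1* and *Tgfb2* stay within a narrow range.

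*Fst* was the member with the widest separation of the populations. Its probe set rc_AA858520_at had signals of 1982 and 1876 in GFP+ cells, 583 and 683 in GFP+/- cells and 203 in NT cells. Every GFP+ array stood above every GFP+/- array, and both above the NT array. The averages were 1929 ± 75.2 in GFP+ cells and 633 ± 71.2 in GFP+/- cells (SD, n = 2 each), a ratio of 3.05. In limma the difference of GFP+ minus GFP+/- cells was 1.61 on the log2 scale (SE 0.17, 95% interval 1.18 to 2.04), or 1.48 above the median of all probe sets, and did not pass (adjusted p = 0.121). In a limma fit of only the brightest 40% of probe sets, those with a mean signal of at least 185.1 over the 5 arrays, it passed (SE 0.21, adjusted p = 0.00469). In that set it held rank 22 from the highest of 3496. Each adjusted p over the brightest 40% below comes from that fit, which has its own prior variance. The other SEs and intervals printed are those of the fit of all probe sets. GFP+ cells exceeded NT cells in *Fst* by 3.25 (SE 0.21, adjusted p = 0.00808), a ratio of 9.51, and GFP+/- cells exceeded them by 1.64 (SE 0.21, adjusted p = 0.0155), a ratio of 3.12. The study named *Fst* from these same arrays, so its order here is not independent evidence.

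The other *Fst* probe set, rc_AA858520_g_at, stands for the same database entry and is no independent measurement of the gene. It had signals of 1253 and 689 in GFP+ cells, 428 and 479 in GFP+/- cells and 112 in NT cells. The order of the populations was the same on every array, although the GFP+ arrays lay 1.82-fold apart. Its difference of GFP+ minus GFP+/- cells was 1.04 (SE 0.31, 95% interval 0.26 to 1.81, adjusted p = 0.258), a ratio of 2.14, and did not pass among the brightest 40% either (adjusted p = 0.0718). It was higher than in NT cells by 3.05 in GFP+ cells (SE 0.38, adjusted p = 0.0152) and by 2.01 in GFP+/- cells (SE 0.38, adjusted p = 0.0339). None of the *Fst* calls against NT cells held without an intensity trend in the prior variance, where the adjusted p was 0.0659 and 0.0819 for GFP+ cells and 0.0909 and 0.118 for GFP+/- cells. With any 1 of the 4 transfected arrays removed, which leaves 1 residual degree of freedom, neither *Fst* probe set passed for GFP+ against NT cells. The differences were then 3.21 to 3.29 (adjusted p = 0.0546 to 0.0732) for the first probe set and 2.62 to 3.48 (adjusted p = 0.0546 to 0.0737) for the other. The calls of GFP+/- against NT cells ended without either GFP+/- array, at 1.75 and 1.52 for the first probe set (adjusted p = 0.122 without array 1 and 0.115 without array 2) and 2.09 and 1.93 for the other (adjusted p = 0.156 and 0.160).

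*Inhba* encodes the beta A subunit, which forms activin A as a homodimer and inhibin A with the alpha subunit. Its probe set M37482_at had signals of 127 and 99.9 in GFP+ cells, 133 and 108 in GFP+/- cells and 114 in NT cells. The arrays of the populations overlapped. No difference passed, with -0.089 for GFP+ minus GFP+/- cells (95% interval -0.85 to 0.68, adjusted p = 0.933), -0.012 for GFP+ minus NT cells (-0.95 to 0.93, adjusted p = 0.991) and 0.077 for GFP+/- minus NT cells (-0.86 to 1.02, adjusted p = 0.938). The intervals leave room for a change of about 2-fold in either direction.

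Of the TGF-beta ligands, *Tgfb1* and *Tgfb2* varied little. *Tgfb1* (X52498cds_at) had signals of 23.7 and 25.8 in GFP+ cells, 18.7 and 20.7 in GFP+/- cells and 20.6 in NT cells. Both GFP+ arrays were above the others, but the probe set was dim, at percentile 20.7 to 23.1 of its array. Its differences were 0.33 for GFP+ minus GFP+/- cells (95% interval -0.82 to 1.48, adjusted p = 0.803) and 0.26 for GFP+ minus NT cells (-1.14 to 1.67, adjusted p = 0.842). That of GFP+/- minus NT cells was -0.065 (-1.47 to 1.34, adjusted p = 0.966) and turned to 0.13 with quantile normalization and 0.049 with equal medians. *Tgfb2* (M96643_at) had signals of 120.3 and 132 in GFP+ cells, 148 and 139 in GFP+/- cells and 134 in NT cells. It was the one member whose GFP+ arrays both lay below both GFP+/- arrays, where 15.4% of all probe sets did so. The difference was -0.19 (95% interval -0.84 to 0.47, adjusted p = 0.808), with -0.092 for GFP+ minus NT cells (-0.90 to 0.71, adjusted p = 0.909) and 0.093 for GFP+/- minus NT cells (-0.71 to 0.90, adjusted p = 0.909).

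*Tgfb3* had 2 probe sets of one entry. U03491_at had signals of 106 and 202 in GFP+ cells, 203 and 129 in GFP+/- cells and 97.7 in NT cells. U03491_g_at had signals of 262 and 398 in GFP+ cells, 387 and 422 in GFP+/- cells and 206 in NT cells. In both the NT array was lowest and the arrays of GFP+ and GFP+/- cells overlapped. The differences of GFP+ minus GFP+/- cells were -0.14 for U03491_at (95% interval -1.19 to 0.91, adjusted p = 0.921) and -0.33 for U03491_g_at (-0.97 to 0.32, adjusted p = 0.637). Those of GFP+ minus NT cells were 0.59 (adjusted p = 0.583) and 0.65 (adjusted p = 0.298). For GFP+/- minus NT cells they were 0.73 (adjusted p = 0.477) and 0.97 (SE 0.32, adjusted p = 0.129), and the value of U03491_g_at passed in the fit of the brightest 40% (adjusted p = 0.0400).

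*Tgfbr1* encodes the type I receptor of the TGF-beta ligands, and both of its probe sets were dim. L26110_at had signals of 9.69 and 2.88 in GFP+ cells, 6.24 and 3.56 in GFP+/- cells and 18.6 in NT cells. The NT array was highest, and the GFP+ arrays lay 3.36-fold apart, the one member with more than 2-fold between arrays of a population. S81584_s_at had signals of 15.6 and 19.0 in GFP+ cells, 17.4 and 17.8 in GFP+/- cells and 13.7 in NT cells, with the NT array lowest. The probe sets of this gene thus disagreed on the place of NT cells. The differences of GFP+ minus GFP+/- cells were 0.17 for L26110_at (95% interval -1.62 to 1.96, adjusted p = 0.946), which turned to -0.074 with quantile normalization, and -0.038 for S81584_s_at (-1.22 to 1.14, adjusted p = 0.981). Against NT cells, L26110_at differed by -1.81 in GFP+ cells (adjusted p = 0.293) and by -1.98 in GFP+/- cells (adjusted p = 0.246), and S81584_s_at by 0.32 (adjusted p = 0.809) and 0.36 (adjusted p = 0.779).

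For *Id2*, of the Id factors, probe set rc_AI137583_at had signals of 3569 and 2122 in GFP+ cells, 1045.5 and 862 in GFP+/- cells and 2142 in NT cells. Both GFP+/- arrays lay below all others, and the NT array lay between the GFP+ arrays. The averages were 2845 ± 1023 in GFP+ cells and 954 ± 130.0 in GFP+/- cells (SD, n = 2 each), a ratio of 2.98. The difference of GFP+ minus GFP+/- cells was 1.54 (SE 0.28, 95% interval 0.84 to 2.23), or 1.41 above the median of all probe sets, and did not pass over all probe sets (adjusted p = 0.149). It passed over the brightest 40% (adjusted p = 0.0135), at rank 30 from the highest of 3496. GFP+ cells did not differ detectably from NT cells (0.36, 95% interval -0.49 to 1.21, adjusted p = 0.616). GFP+/- cells had a ratio of 0.445 to NT cells and a difference of -1.17 (SE 0.34, adjusted p = 0.0986), which passed over the brightest 40% (adjusted p = 0.0206). *Id2* was the one member whose GFP+/- arrays were below all others, a pattern of 17.9% of all probe sets.

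*Id1* had 2 probe sets that the platform annotation gives to this gene, of an entry that the study lists under another gene name. L23148_g_at had signals of 1194 and 918 in GFP+ cells, 651 and 599 in GFP+/- cells and 382 in NT cells. The order of the populations was that of *Fst* on every array. The averages were 1056 ± 195 in GFP+ cells and 625 ± 36.8 in GFP+/- cells (SD, n = 2 each). The difference of GFP+ minus GFP+/- cells was 0.74 (SE 0.20, 95% interval 0.25 to 1.24), or 0.62 above the median of all probe sets, and did not pass over all probe sets (adjusted p = 0.221) or the brightest 40% (adjusted p = 0.0954). GFP+ cells were higher than NT cells by 1.45 (SE 0.24, adjusted p = 0.0265), a ratio of 2.76. This call was lost with any 1 of the 4 transfected arrays removed (1.26 to 1.64, adjusted p = 0.0641 to 0.0969) and without the intensity trend (adjusted p = 0.118). The difference of GFP+/- minus NT cells was 0.71 (SE 0.24, adjusted p = 0.142). L23148_at had signals of 182 and 301 in GFP+ cells, 192 and 178 in GFP+/- cells and 205 in NT cells. Its arrays overlapped, and its differences of 0.34 for GFP+ minus GFP+/- cells (adjusted p = 0.679), 0.19 for GFP+ minus NT cells (adjusted p = 0.828) and -0.15 for GFP+/- minus NT cells (adjusted p = 0.869) did not pass, so that the *Id1* probe sets disagreed.

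*Id3* did not separate GFP+ and GFP+/- cells. Its probe set rc_AI171268_at had signals of 3213 and 2360.4 in GFP+ cells, 3154 and 2495 in GFP+/- cells and 1524 in NT cells. AF000942_at, of another entry, had signals of 411 and 209 in GFP+ cells, 382 and 476 in GFP+/- cells and 262 in NT cells. On rc_AI171268_at the transfected populations overlapped and both stood above the NT array, whereas on AF000942_at the NT array lay between the GFP+ arrays. The differences of GFP+ minus GFP+/- cells were -0.027 for rc_AI171268_at (95% interval -0.58 to 0.53, adjusted p = 0.971) and -0.54 for AF000942_at (-1.42 to 0.34, adjusted p = 0.566). Against NT cells, rc_AI171268_at differed by 0.85 in GFP+ cells (SE 0.28, adjusted p = 0.126) and by 0.88 in GFP+/- cells (SE 0.28, adjusted p = 0.115), and both values passed over the brightest 40% (adjusted p = 0.0462 and 0.0403). AF000942_at differed by 0.16 (adjusted p = 0.876) and 0.70 (adjusted p = 0.405).

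**Figure D2:**
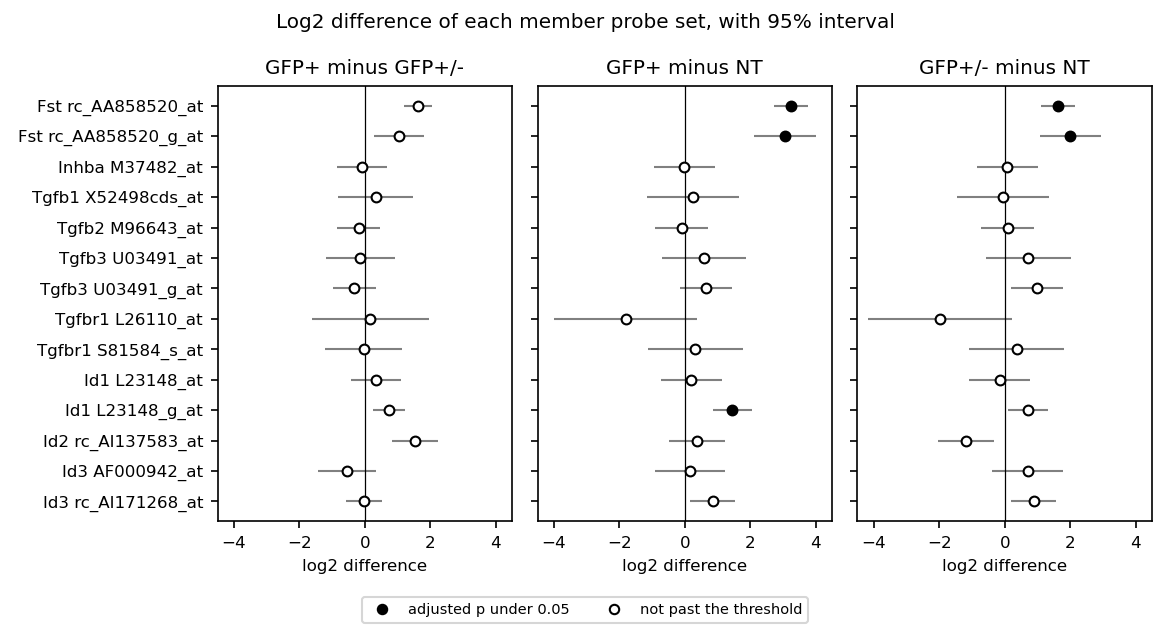
Log2 difference of each of the 14 probe sets in the 3 comparisons, with its 95% interval from limma; filled points passed at an adjusted p under 0.05 over all 8740 probe sets. The filled points are both *Fst* probe sets in both comparisons with NT cells and *Id1* L23148_g_at in GFP+ minus NT cells, and no point is filled in GFP+ minus GFP+/- cells.

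Counted over the members, limma passed 0 of 14 probe sets for GFP+ against GFP+/- cells, as it passed 0% of all probe sets. At an unadjusted p under 0.05, 4 of 14 were higher (both *Fst* probe sets, *Id1* L23148_g_at and *Id2*) and 0 lower, where 9.15% of all probe sets were higher and 4.75% lower. By the ratio of averaged signals, 3 of 14 were more than 2-fold higher (both *Fst* probe sets and *Id2*), where 8.89% of all probe sets were, and 0 were more than 2-fold lower, where 4.18% were. Every GFP+ array was above every GFP+/- array for 5 of 14, where this was so for 30.4% of all probe sets, a share close to that of the members. Of the 14 probe sets, 8 of 5 genes lay among the brightest 40%, where limma passed *Fst* rc_AA858520_at and *Id2* as higher and none as lower, and 2.23% of that set were higher and 1.8% lower. The direction of the whole table depended on the scaling, since its median log2 difference was 0.13 as deposited, -0.0054 with quantile normalization and -0.028 with equal medians. At an unadjusted p under 0.05 the table split into 800 higher and 415 lower as deposited, 588 and 554 with quantile normalization, and 507 and 681 with equal medians. The median of the 14 members was 0.070.

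**Figure D3:**
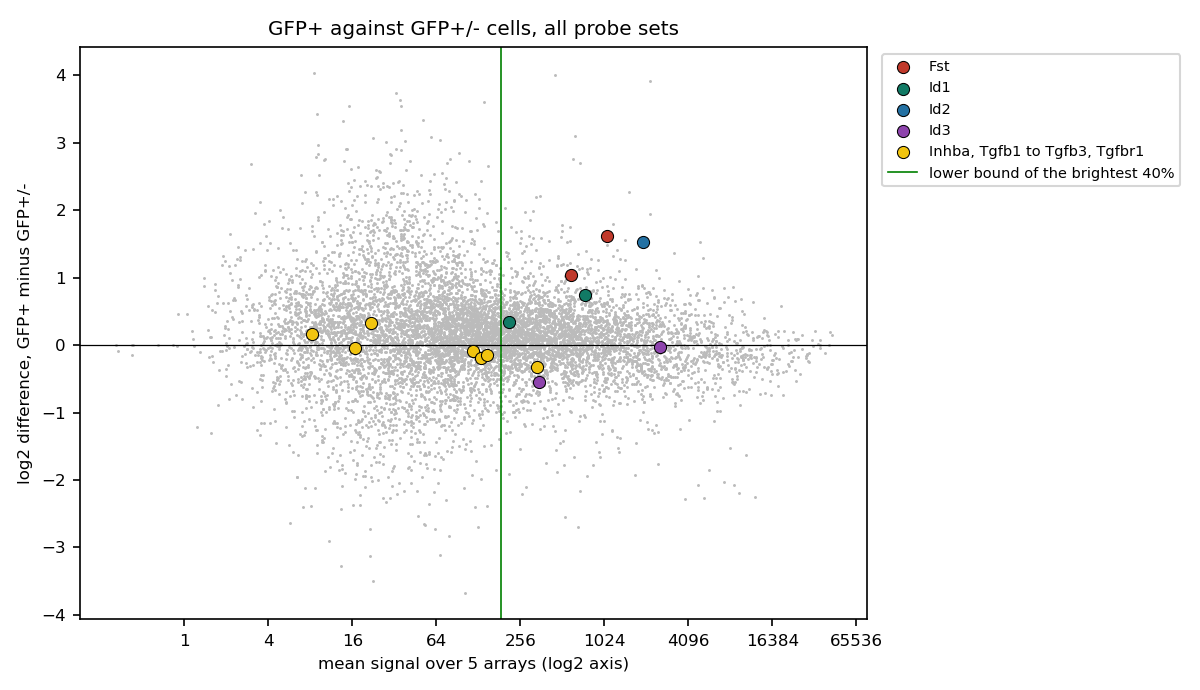
Log2 difference of GFP+ minus GFP+/- cells against the mean signal over the 5 arrays (log2 axis) for all 8740 probe sets (grey) and the 14 member probe sets (coloured); the vertical line marks the mean signal of 185.1 above which the brightest 40% lie. The *Fst* and *Id2* points lie at 1.04 to 1.61 among the bright probe sets, above most of the others there, and the TGF-beta ligands and the receptor lie near 0.

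For GFP+ against NT cells, limma passed 3 of 14 as higher (both *Fst* probe sets and *Id1* L23148_g_at), where it passed 4.38% of all probe sets, and 0 of 14 as lower, where it passed 4.06%. At an unadjusted p under 0.05, 4 of 14 were higher, where 12.9% of all probe sets were, and 0 lower, where 11.4% were. Over the brightest 40%, both *Fst* probe sets, *Id1* L23148_g_at and *Id3* rc_AI171268_at were higher, 4 of 8, where 16.9% of that set were higher and 15.1% lower. More than 2-fold higher were the same 3 probe sets, against 14.5% of all, and more than 2-fold lower was 1 (*Tgfbr1* L26110_at), against 12.3%. For GFP+/- against NT cells, 2 of 14 passed as higher (both *Fst* probe sets), against 4.2% of all, and 0 as lower, against 5.03%. At an unadjusted p under 0.05, 5 of 14 were higher, where 11.4% of all probe sets were, and *Id2* was lower, where 13.5% were. Over the brightest 40%, both *Fst* probe sets, *Tgfb3* U03491_g_at and *Id3* rc_AI171268_at were higher, 4 of 8, and *Id2* was lower, where 16.5% of that set were higher and 16.1% lower. More than 2-fold higher were these 2 *Fst* probe sets, against 12.1% of all, and more than 2-fold lower were *Id2* and *Tgfbr1* L26110_at, against 15.2%. The median of the members was 0.34 in GFP+ minus NT cells and 0.53 in GFP+/- minus NT cells, beside 0.056 and -0.094 over all probe sets. Every GFP+ array above every GFP+/- array, and these above the NT array, was found for 3 of 14 (both *Fst* probe sets and *Id1* L23148_g_at), against 7.75% of all. The comparisons share arrays, so these counts are not independent of each other, and the *Gapdh* ratios given above set the NT array apart from the other 4.

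The pattern nearest to that of *Fst* rc_AA858520_at, by the Euclidean distance of the log2 signals centred over the 5 arrays, was that of *Crp* (M13101cds_f_at), at a distance of 0.36 among the brightest 40%. Its signals were 958 and 982 in GFP+ cells, 305 and 372 in GFP+/- cells and 137 in NT cells. *Crp* encodes C-reactive protein, an acute phase protein of the liver, and the suffix of this probe set marks probes shared by a family of sequences. The study lists the same entry once under this name and once as an unknown protein, so that its identity is uncertain. *Fos*, an immediate early gene and part of the AP-1 factor, followed at 0.48 (X06769cds_g_at), with 2687 and 2227 in GFP+ cells, 1093 and 944 in GFP+/- cells and 287 in NT cells. The third was X07686cds_s_at, which the platform annotation gives to *Rpl19l4*, at 0.75. It had 1036 and 864 in GFP+ cells, 418 and 462 in GFP+/- cells and 180.0 in NT cells. Whether this probe set measures that gene was not tested. The *Fst* probe sets themselves lay 0.80 apart, farther than any of these 3 probe sets from the first *Fst* probe set. The likeness rests on 5 arrays of 3 populations, with no test. The study lists *Fst*, *Fos* and the entry of the *Crp* probe set as enriched in GFP+ cells on these same arrays. Their likeness here is therefore not independent evidence.

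**Figure D4:**
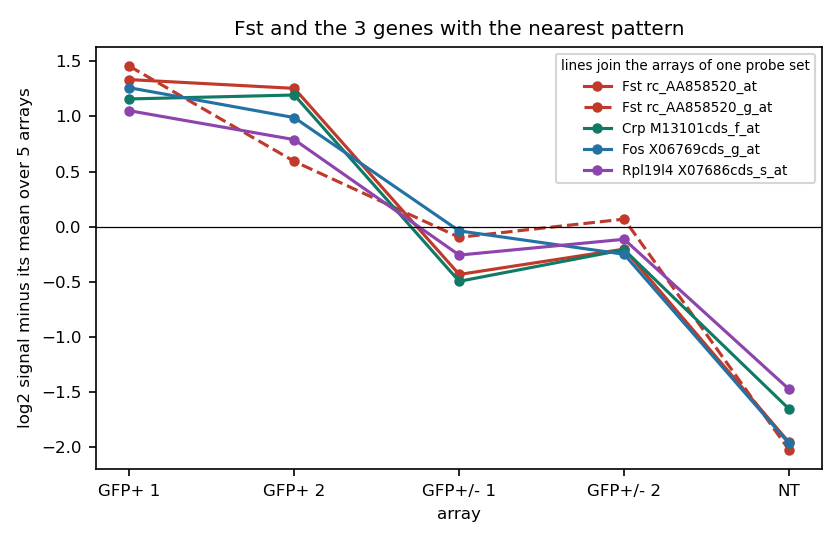
Log2 signal of each probe set minus its mean over the 5 arrays, for both *Fst* probe sets and the 3 probe sets of other annotated genes with the nearest pattern; each point is 1 array and lines join the arrays of one probe set. All 5 probe sets are highest on the GFP+ arrays, intermediate on the GFP+/- arrays and lowest on the NT array.

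Genes of the lists below, each read from its brightest probe set, made up 7 calls for GFP+ against NT cells and 9 for GFP+/- against NT cells. Like the calls of the members, none of these held without the intensity trend in the prior variance, where the adjusted p was 0.0659 to 0.144 for GFP+ cells and 0.0748 to 0.160 for GFP+/- cells. With any 1 of the 4 transfected arrays removed, none of the 7 passed. Of the 9, *Bgn*, *Junb*, *Acta2* and *Tcf4* passed without either GFP+ array, and none passed without either GFP+/- array.

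Of 19 other TGF-beta superfamily ligands listed, 13 were measured, and none passed for GFP+ against GFP+/- or NT cells. *Bmp4*, a bone morphogenetic protein that acts through SMADs and induces *Id* genes, had signals of 3.66 and 5.25 in GFP+ cells, 45.4 and 53.7 in GFP+/- cells and 4.53 in NT cells. GFP+/- cells exceeded NT cells by 3.44 (SE 0.61, adjusted p = 0.0289). No other listed ligand passed there, and the signals of *Bmp4* were low on every array. The difference of GFP+ minus GFP+/- cells was -3.49 (SE 0.50, adjusted p = 0.129). The medians of the ligands were 0.18 for GFP+ minus GFP+/- cells, 0.11 for GFP+ minus NT cells and 0.0068 for GFP+/- minus NT cells, beside 0.13, 0.056 and -0.094 over all probe sets. That of GFP+/- minus NT cells turned to -0.25 when all probe sets of a gene were averaged.

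Of 13 other receptors, 9 were measured and none passed over all probe sets in any comparison. *Acvr2b*, a type II receptor of activins and thus of the ligand that follistatin binds, had signals of 2033 and 1238 in GFP+ cells, 1426 and 1097 in GFP+/- cells and 809.9 in NT cells. Its GFP+ and GFP+/- arrays overlapped above the NT array. The differences were 0.34 for GFP+ minus GFP+/- cells (SE 0.28, adjusted p = 0.645) and 0.97 for GFP+ minus NT cells (SE 0.35, adjusted p = 0.158), and the second of these passed over the brightest 40% (adjusted p = 0.0469). The other *Acvr2b* probe set differed by 0.33 between GFP+ and NT cells (adjusted p = 0.536). *Acvr1b*, a type I receptor of activins, had signals of 197 and 249 in GFP+ cells, 188 and 172 in GFP+/- cells and 185 in NT cells, with a difference of 0.30 between GFP+ and GFP+/- cells (SE 0.25, adjusted p = 0.641). Of 16 SMADs and regulators, 6 were measured and none passed in any comparison. *Smad2*, which activin and TGF-beta receptors phosphorylate, differed by -0.27 between GFP+ and GFP+/- cells (SE 0.23, adjusted p = 0.657) and *Smad4*, the common partner, by -0.13 (SE 0.22, adjusted p = 0.838). Receptor medians were 0.34 for GFP+ minus GFP+/-, 0.23 for GFP+ minus NT and -0.041 for GFP+/- minus NT cells. Those of the SMADs and regulators were -0.046, -0.18 and -0.18 in the same order. Over all probe sets the medians were 0.13, 0.056 and -0.094.

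Of 16 extracellular binding proteins of the ligands, 11 were measured. *Bgn*, the proteoglycan biglycan, had signals of 667 and 979.8 in GFP+ cells, 2024 and 2160.3 in GFP+/- cells and 828 in NT cells. GFP+/- cells exceeded NT cells by 1.34 (SE 0.28, adjusted p = 0.0412), and *Bgn* differed by -1.37 between GFP+ and GFP+/- cells (SE 0.23, adjusted p = 0.145, and 0.0130 over the brightest 40%). Its other probe set differed by -0.40 between GFP+/- and NT cells (adjusted p = 0.790) and by -0.061 between GFP+ and GFP+/- cells (adjusted p = 0.974). *Fstl1*, a follistatin-like secreted protein, differed by -0.98 between GFP+ and GFP+/- cells (SE 0.28, adjusted p = 0.252), and its other probe set by -1.88 (adjusted p = 0.154). Between GFP+/- and NT cells *Fstl1* differed by 1.03 (SE 0.35, adjusted p = 0.134), which passed over the brightest 40% (adjusted p = 0.0321), and its other probe set by 0.39 (adjusted p = 0.675). *Dcn*, decorin, which binds TGF-beta, had signals of 9.02 and 9.56 in GFP+ cells, 57.0 and 60.3 in GFP+/- cells and 124 in NT cells. It was lower in GFP+ than in NT cells by this brightest of its 4 probe sets (-3.74, SE 0.53, adjusted p = 0.0192), and the others differed by 1.11, -2.26 and 0.11 and did not pass. *Bgn* and *Dcn* are also among the fibroblast markers, whose summed signals, given above, include them. The median of the list was -0.52 for GFP+ minus GFP+/- cells, -0.033 for GFP+ minus NT cells and 0.55 for GFP+/- minus NT cells, beside the medians over all probe sets of 0.13, 0.056 and -0.094.

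**Figure D5:**
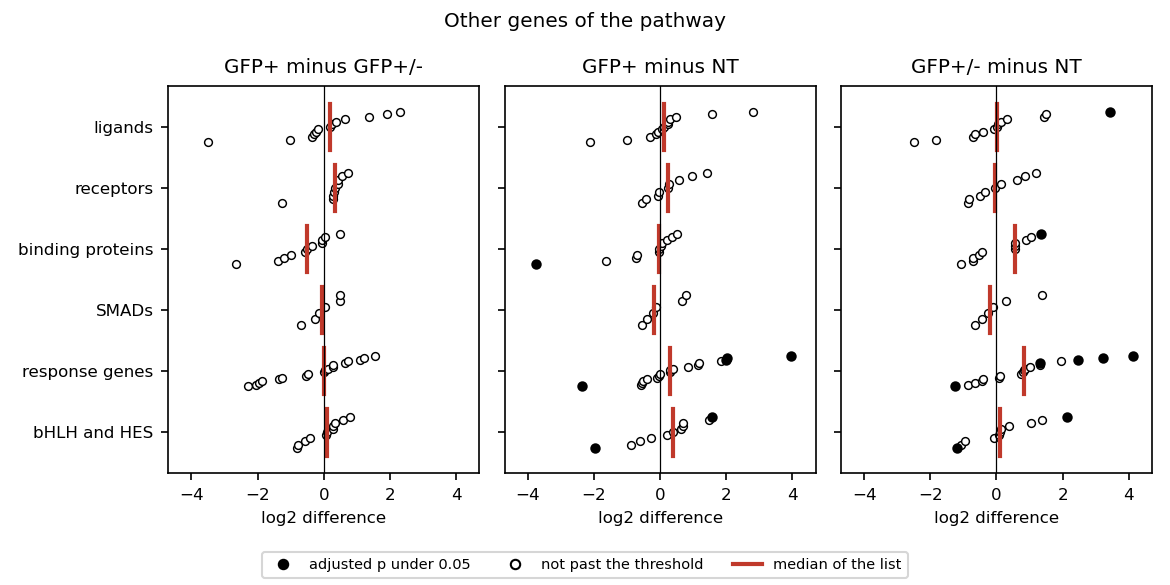
Log2 difference of each measured gene of 6 lists in the 3 comparisons, each gene read from its brightest probe set; filled points passed limma over all probe sets and the bars mark the median of a list. No gene passed in GFP+ minus GFP+/- cells, and the response genes have most of the filled points in the comparisons with NT cells.

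Of 24 genes known to respond to TGF-beta or activin, 18 were measured and 0 passed for GFP+ against GFP+/- cells in limma over all probe sets. *Klf10*, a TGF-beta inducible early gene that the study picked from these arrays, had signals of 873 and 777 in GFP+ cells, 291 and 272 in GFP+/- cells and 675 in NT cells. Like *Id2* it was lowest on both GFP+/- arrays. It was lower in GFP+/- than in NT cells (-1.26, SE 0.22, adjusted p = 0.0276), and the difference of GFP+ minus GFP+/- cells was 1.55 (SE 0.18, adjusted p = 0.121, and 0.00495 over the brightest 40%). *Cdkn1a*, a cyclin-dependent kinase inhibitor, had signals of 545 and 581 in GFP+ cells, 297 and 196 in GFP+/- cells and 137 in NT cells, the order of *Fst*. GFP+ cells exceeded NT cells by 2.03 (SE 0.32, adjusted p = 0.0235). *Pmepa1*, a membrane protein that dampens SMAD signalling, had signals of 2359 and 3716 in GFP+ cells, 3120 and 5440.4 in GFP+/- cells and 749 in NT cells. It passed as higher than in NT cells in GFP+ cells (1.98, SE 0.42, adjusted p = 0.0468) and in GFP+/- cells (2.46, SE 0.42, adjusted p = 0.0273).

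*Junb*, an AP-1 factor, had signals of 292 and 150.1 in GFP+ cells, 124 and 125 in GFP+/- cells and 13.5 in NT cells. It passed as higher than in NT cells in GFP+ cells (3.96, SE 0.51, adjusted p = 0.0157) and in GFP+/- cells (3.21, SE 0.51, adjusted p = 0.0234), while its other probe set differed by -0.064 and -0.099. *Acta2*, smooth muscle actin, had signals of 1053 and 2375 in GFP+ cells, 6561 and 9059 in GFP+/- cells and 441 in NT cells, and GFP+/- cells exceeded NT cells by 4.13 (SE 0.49, adjusted p = 0.0143), while its other probe sets differed by 0.63 (adjusted p = 0.433) and -2.45 (adjusted p = 0.0635). For *Tagln*, another smooth muscle protein, GFP+/- cells exceeded NT cells by 1.32 (SE 0.29, adjusted p = 0.04995), with 0.19 for its other probe set. *Col3a1*, a fibrillar collagen, was lower in GFP+ than in NT cells (-2.36, SE 0.41, adjusted p = 0.0301). In all, 3 of 18 response genes passed as higher and 1 as lower for GFP+ against NT cells, where 4.38% and 4.06% of all probe sets did, and 4 as higher and 1 as lower for GFP+/- against NT cells, where 4.2% and 5.03% did. The brightest 40% held 12 of these 18 genes. Of the 12, 2 were higher in GFP+ than in GFP+/- cells, *Klf10* and *Cdkn1a*, and 6 were lower, *Col1a1*, *Col1a2*, *Col3a1*, *Fn1*, *Acta2* and *Tagln*, where 2.23% of that set were higher and 1.8% lower. These calls rest on the brightest probe set of each gene. In the same comparison the other probe set of *Col3a1* differed by 0.22, against -1.95 for the brightest, those of *Fn1* by -0.0052, -0.12, 0.039 and -0.55, against -1.25, and those of *Acta2* by -0.64 and 0.31, against -2.29. Those of *Col1a1* differed by -0.70, -1.59 and -2.07, against -2.04, and that of *Tagln* by -1.04, against -1.36. Those of *Klf10* differed by 0.60 and 0.83, against 1.55, and that of *Cdkn1a* by 1.24, against 1.22. All 6 that were lower stand in the lists of fibroblast or mural markers. The summed signals of those lists include these genes and are no separate evidence. Between GFP+ and NT cells, the brightest probe sets of *Col1a1*, *Col1a2* and *Col3a1* differed by -0.097, -0.54 and -2.36. Those of *Fn1*, *Acta2* and *Tagln* differed by -0.51, 1.84 and -0.042. Of the 12 bright genes, 4 were higher and 1 lower in GFP+ than in NT cells, beside 16.9% and 15.1% of that set. In GFP+/- cells 7 were higher and 2 lower, beside 16.5% and 16.1%. Higher only over the brightest 40% were *Acta2* (adjusted p = 0.00859) and *Timp1* (0.0449) in GFP+ cells. In GFP+/- cells these were *Col1a1* (0.00450), *Col1a2* (0.0386), *Timp1* (0.0438) and *Sparc* (0.0255), and *Tsc22d1* was lower (0.0379). The medians of the response genes were 0.020 for GFP+ minus GFP+/- cells, 0.30 for GFP+ minus NT cells and 0.82 for GFP+/- minus NT cells, beside 0.13, 0.056 and -0.094 over all probe sets.

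Of 18 genes that encode *Id4*, bHLH partners of the Id proteins or HES factors, 11 were measured and none passed for GFP+ against GFP+/- cells. *Tcf4*, an E protein that Id proteins bind, had signals of 596 and 629 in GFP+ cells, 903 and 909.6 in GFP+/- cells and 207 in NT cells. It was higher than in NT cells by 1.57 in GFP+ cells (SE 0.20, adjusted p = 0.0158) and by 2.13 in GFP+/- cells (SE 0.20, adjusted p = 0.0109). *Tcf3* differed by 1.04 between GFP+/- and NT cells (SE 0.26, adjusted p = 0.0681), which passed over the brightest 40% (adjusted p = 0.0187). The other *Tcf3* probe set differed by 0.072 (adjusted p = 0.948). *Neurod1*, a bHLH factor of young neurons, had signals of 257 and 223 in GFP+ cells, 446 and 384 in GFP+/- cells and 943 in NT cells, the reverse of the order of *Fst*. It was lower than in NT cells both in GFP+ cells (-1.98, SE 0.24, adjusted p = 0.0151) and in GFP+/- cells (-1.19, SE 0.24, adjusted p = 0.0402), where the second call was lost with quantile normalization (adjusted p = 0.0579) or equal medians (adjusted p = 0.0552), and its other probe set differed by -1.84 (adjusted p = 0.158) and -1.12 (adjusted p = 0.380). For GFP+ against NT cells, 1 of the 11 passed as higher and 1 as lower, where 4.38% and 4.06% of all probe sets did. For GFP+/- against NT cells it was also 1 and 1, where 4.2% and 5.03% did. The medians of this list were 0.093 for GFP+ minus GFP+/- cells, 0.39 for GFP+ minus NT cells and 0.11 for GFP+/- minus NT cells. Those over all probe sets were 0.13, 0.056 and -0.094.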

How the data were processed

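RNA of GFP+ (2 arrays), GFP+/- (2 arrays) and NT cells (1 array) had been hybridized to rat U34A arrays. The authors summarised each probe set in MAS 5.0 as a signal, which is an intensity on a linear scale, and multiplied each array by a single factor. Without the top and bottom 2%, the mean of the deposited intensities was 501 on every array, another target than the methods name, which does not change ratios. Precision is limited by the number of arrays, which carry no read depth. Control probe sets (59 of 8799) were dropped. Probe sets were named through the platform annotation, 7006 with 1 gene, 308 with several and 1426 with none.

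Signals under 1 were set to 1 and log2 was taken. Populations were compared with limma 3.58.1 (R 4.3.3), whose single model held all arrays, a mean for each population and a prior variance that followed intensity, with Benjamini-Hochberg adjustment over 8740 probe sets and a threshold of 0.05. NT cells were assumed to vary like the others. The ratio of averaged signals, called past 2-fold, is the measure that the methods describe. Genes of a list were read from their brightest probe set over the 5 arrays. All member probe sets are named. Of each list, genes that passed are named, otherwise up to 3 bright genes with the largest difference of GFP+ over GFP+/- cells. The 3 probe sets of other annotated genes nearest to *Fst* were taken by distance. Genes past the threshold only over the brightest 40% were named after their values were seen. Members, lists and rules were chosen with earlier results of these data known.

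The alternatives were quantile normalization, equal medians, 16 added to each signal, a limma fit of the brightest 40% of probe sets only, a prior without the intensity trend, a fit without the NT array, a replicate block, removal of 1 transfected array at a time, and, for lists, the average over all probe sets of a gene. Promoters were taken from RefSeq (GRCr8). Figures were drawn with matplotlib 3.10.9 (Python 3.11.15, pandas 2.3.3, numpy 2.4.6).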

Additional observations from a re-analysis of the deposited data

How the results depend on the processing

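Quantile normalization, equal medians, 16 added to each signal and the fit of only the GFP+ and GFP+/- arrays changed no limma call of a member. The count of members past 2-fold did move. It went from 3 to 2 with equal medians for GFP+ against GFP+/- cells, and from 4 to 3 with 16 added for GFP+ against NT cells. For GFP+/- against NT cells it went from 4 to 5 with quantile normalization, 6 with equal medians and 3 with 16 added. These alternatives turned the sign of *Tgfbr1* L26110_at for GFP+ minus GFP+/- cells (-0.074 with quantile normalization) and of *Tgfb1* for GFP+/- minus NT cells (0.13 with quantile normalization, 0.049 with equal medians), and of no other member. In the fit of the brightest 40%, both the prior variance and the number of probe sets adjusted for differ. There limma passed 141 probe sets for GFP+ against GFP+/- cells, 2 of them members, and 1119 for GFP+ against NT cells, and 5 members for GFP+/- against NT cells. Without the intensity trend it passed 0 members and 2 probe sets in either comparison with NT cells, and the cause was not tested. The labels do not say that a replicate number marks anything the arrays share, and the correlation of same-numbered deviations was 0.063 over all probe sets and 0.19 over the brightest 40%. With the replicate block 2 probe sets passed for GFP+ against GFP+/- cells and 0 members.

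Leaving out 1 array leaves 1 residual degree of freedom. For GFP+ against NT cells 0 members (0 to 0) and 1 probe set (1 to 1) then passed, and for GFP+/- against NT cells 0 to 2 members and 1 to 333 probe sets, the lowest counts without a GFP+/- array. For GFP+ minus GFP+/- cells the sign turned within the ranges of *Tgfb3* U03491_at (-0.60 to 0.33), *Tgfbr1* L26110_at (-0.71 to 1.04) and S81584_s_at (-0.18 to 0.10), *Inhba* (-0.26 to 0.086), *Id1* L23148_at (-0.022 to 0.70) and *Id3* rc_AI171268_at (-0.25 to 0.20). For GFP+ minus NT cells it turned for *Id2* (-0.014 to 0.74), *Id3* AF000942_at (-0.33 to 0.65), *Inhba* (-0.19 to 0.16) and *Id1* L23148_at (-0.17 to 0.55), and for GFP+/- minus NT cells for *Inhba* (-0.068 to 0.22) and *Tgfb1* (-0.14 to 0.0055). *Fst* and *Id2* kept their direction in GFP+ minus GFP+/- cells (1.497 to 1.73 and 0.61 to 1.47 for the *Fst* probe sets, 1.16 to 1.91 for *Id2*). When all probe sets of a gene were averaged, the median of the ligands for GFP+/- minus NT cells became -0.25, that of the binding proteins for GFP+ minus NT cells -0.56, those of the SMADs 0.11 for GFP+ minus GFP+/- and 0.0056 for GFP+/- minus NT cells, and those of the response genes 0.0035 for GFP+ minus GFP+/-, -0.047 for GFP+ minus NT and 0.62 for GFP+/- minus NT cells. Of the 7 calls of listed genes in GFP+ and the 9 in GFP+/- cells against NT cells, *Neurod1* in GFP+/- cells was the only one lost with quantile normalization (adjusted p = 0.0579) or equal medians (adjusted p = 0.0552), and none was lost with 16 added.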

Other observations

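Among ligands and receptors outside the members, 4 probe sets were chosen here after their values were seen, and none passed limma over all probe sets. *Bmp7*, a bone morphogenetic protein, had signals of 72.1 and 97.6 in GFP+ cells, 18.5 and 15.9 in GFP+/- cells and 28.0 in NT cells, and its difference of GFP+ minus GFP+/- cells was 2.29 (SE 0.45, adjusted p = 0.160). *Gdf15*, a distant member of the superfamily, had signals of 84.4 and 63.6 in GFP+ cells, 16.4 and 49.0 in GFP+/- cells and 10.4 in NT cells, with a difference of 1.37 (SE 0.65, adjusted p = 0.420). Both were higher on each GFP+ array than on each other array. For 30.4% of all probe sets, every GFP+ array was above every GFP+/- array. *Gdf10*, a further ligand, had signals of 26.4 and 33.1 in GFP+ cells, 60.2 and 59.0 in GFP+/- cells and 21.0 in NT cells, with a difference of -1.01 (SE 0.43, adjusted p = 0.372). *Acvrl1*, a type I receptor best known from endothelial cells, had signals of 85.9 and 79.5 in GFP+ cells, 156 and 251 in GFP+/- cells and 85.6 in NT cells, with a difference of -1.26 (SE 0.34, adjusted p = 0.229). Both were highest on the GFP+/- arrays. Of 10 mural and endothelial markers, 3 were higher and 3 lower on both GFP+ arrays than on both GFP+/- arrays. Over all probe sets, 30.4% were higher and 15.4% lower in this way. The part of mural and endothelial cells in *Acvrl1* was not tested.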
